A study of Rattus norvegicus with 8 samples.

Results

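miR-21 and its opposite arm, miR-21*, are the 2 members described here, chosen by name as the rows rno-miR-21 and rno-miR-21* out of 620 rows of counts on known rat miRNAs. The samples came from male Big Blue transgenic rats of the Fisher 344 strain, aged 6 weeks when dosing began. The AA group of 4 rats was given aristolochic acid (AA, a kidney carcinogen) as the sodium salt by gavage, at 10 mg/kg in a volume of 4 ml/kg, with 5 doses a week for 12 weeks, and the control group (CTL) of 4 rats was given 0.9% sodium chloride on that schedule. All rats were killed 1 day after the last dose, so the data show a single time point after repeated dosing. Both groups carry the Big Blue transgene, a reporter for mutation assays. The tissue field of the labels says liver, whereas the series text and the paper say kidney. The row rno-miR-122, the defining miRNA of liver cells, held 9634 reads in the second AA library (AA2) and 9 to 707 reads in the other libraries, and the deposited counts summed to between 13412373 and 15616670 in each library.

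miRNAs are cut from a hairpin precursor, first by Drosha and then by Dicer, into a duplex of 2 short strands. Usually 1 strand is loaded into Argonaute and guides it to target mRNAs through its seed, while the other strand, the star, is mostly degraded. miR-21 is among the most widely expressed mammalian miRNAs, is known for high levels in tumours, and in the kidney is best known for its rise in injured and scarring tissue. It is present in epithelial cells, fibroblasts and leukocytes. In whole kidney, a change in the cells that make it cannot be told apart from a change in its amount per cell.

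Both arms lie in the gene Mir21 of RefSeq, at chr10:71902600-71902691 on the minus strand of the rat assembly GRCr8. The protein-coding gene Vmp1 lies on the same strand at chr10:71903223-72002337, and 531 bases separate its annotated 3′ end from the hairpin, so that Mir21 lies downstream of the gene and in none of its exons or introns. The table of counts names the arms without sequences, and the sequences below are the 5p and 3p arms of RefSeq, to which rno-miR-21 and rno-miR-21* were matched by name. The hairpin shows how both arms come from 1 precursor, with the 5p arm and then the 3p arm in capitals. In the arms, the capitals mark the seed, bases 2 to 8.
rno-mir-21 hairpin: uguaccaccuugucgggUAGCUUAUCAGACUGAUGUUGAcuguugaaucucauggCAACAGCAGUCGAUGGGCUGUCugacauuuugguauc
rno-miR-21 (5p arm): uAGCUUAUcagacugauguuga
rno-miR-21* (3p arm): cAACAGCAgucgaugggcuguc

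The arms are both 22 nt long, and 16 nt of the hairpin lie between them. Folding the 92 nt hairpin with RNAfold gave a minimum free energy of -42.6 kcal/mol, with 38 base pairs, 19 of them between the arms and 3 of these G-U pairs. Counted on this predicted structure, the 3p arm ended in a 3′ overhang of 2 nt and the 5p arm in an overhang of 1 nt. The GC content was 36.4% in the 5p arm and 59.1% in the 3p arm. Each of the 2 seeds was carried by 1 mature name in the RefSeq table, that of the arm itself. No other row was therefore grouped with either member by seed. The search covered the 693 RefSeq mature names, and 117 row names of the counts occur unchanged among them. Rows without a RefSeq sequence were not checked.

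miR-21 was a major miRNA of the control kidney and took a several times larger part of the reads in AA rats. Among the controls, rno-miR-21 held 517398, 426915, 503966 and 344902 reads in CTL1 to CTL4, or 3.39%, 2.91%, 3.25% and 2.51% of the library. In the AA group it held 2131778, 1862814, 1026494 and 3003352 reads in AA1 to AA4, or 15.9%, 12.3%, 7.43% and 19.2%. The groups did not overlap, and the lowest AA library, AA3, lay above the highest control library, CTL1. The mean share was 3.01% ± 0.392 for the controls and 13.7% ± 5.06 for the AA rats (SD over 4 libraries each). These differ by 10.7 percentage points (exact permutation test, two-sided, p = 0.0286, adjusted p = 0.0429 over the 2 shares and the arm ratio). A p of 0.0286 is the smallest that 4 against 4 libraries can give. In the ranking of all rows by reads, rno-miR-21 stood at rank 6 or 7 in the control libraries, at rank 3 in AA1 and AA2, at rank 5 in AA3 and at rank 1 in AA4.

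miR-21* had far fewer reads, and the AA libraries again lay above the control libraries. It held 351, 383, 481 and 319 reads in CTL1 to CTL4 and 1640, 1699, 760 and 1199 reads in AA1 to AA4. As a share of the library, rno-miR-21* was highest in AA1, at 0.0122%, whereas rno-miR-21 was highest in AA4, and AA3 was the lowest AA library for both arms. Its mean share was 0.00258% ± 0.000371 for the controls and 0.00915% ± 0.00311 for the AA rats (SD over 4 libraries each, exact permutation test, two-sided, p = 0.0286, adjusted p = 0.0429). The share in CTL3, the highest control at 0.00310%, had a 95% Wilson interval of 0.00283% to 0.00339%. That in AA3, 0.00550%, had one of 0.00512% to 0.00591%, and the intervals of these nearest libraries did not overlap. Such intervals treat each read as an independent draw, and are too narrow where PCR makes many reads from 1 molecule. They do not describe the spread between rats.

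**Figure D1:**
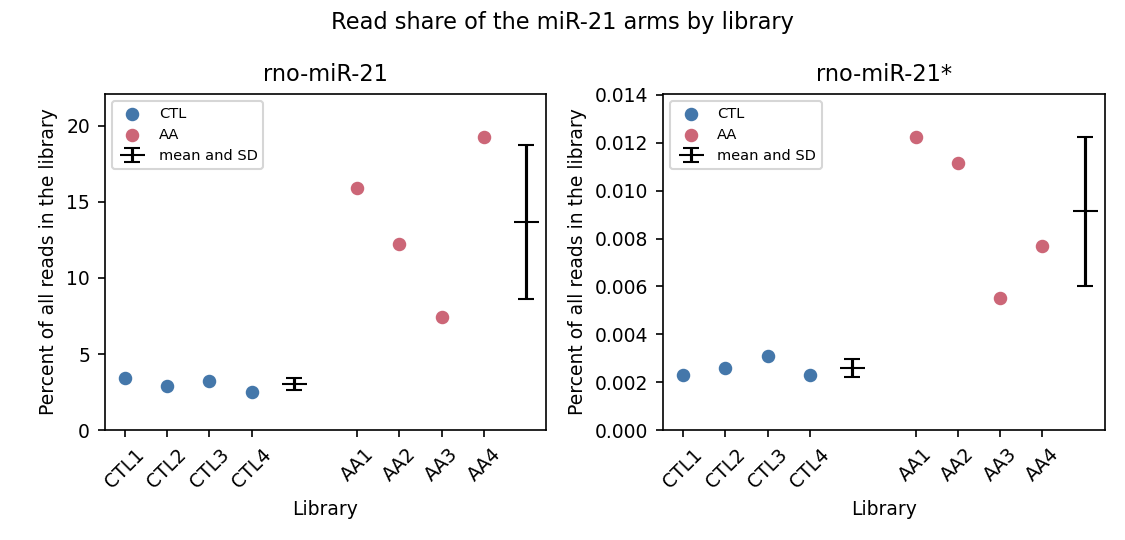
Percent of all reads in each library that were counted on rno-miR-21 (left) and on rno-miR-21* (right), with the mean and SD of each group of 4 in black. For both arms every AA library lies above every control library, and AA4 is the highest for rno-miR-21 at 19.2% but only the third highest for rno-miR-21*.

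The change was then tested across all miRNAs with edgeR's quasi-likelihood test after TMM normalization, which sets the scale from the bulk of the miRNAs and not from the total. Values on this scale are given as CPM, a read count divided by the scaled library size. In CTL1 to CTL4, rno-miR-21 stood at 38797, 31415, 31252 and 28096 CPM, and in AA1 to AA4 at 164774, 101057, 70622 and 177903 CPM. Its log2 fold change was 1.99 ± 0.29 (standard error) with an adjusted p of 0.0012 by edgeR, and the group means were 32390 ± 4536 and 128589 ± 51184 CPM (SD over 4 libraries each). For rno-miR-21* the group means were 27.6 ± 1.78 and 85.6 ± 31.9 CPM, and its log2 fold change was 1.63 ± 0.27 (standard error) with an adjusted p of 0.0023 by edgeR. Both members were thus called higher. Of the 367 miRNAs tested, 16.3% were called in all, 10.4% as higher and 5.99% as lower in the AA rats. For both, the CPM of all AA libraries lay above those of all control libraries, as for 14.4% of the miRNAs tested. Among the 367, rno-miR-21 ranked 18 by log2 fold change and rno-miR-21* ranked 23. Both remained called in the 11 alternative fits that changed the scaling, the test, the filter or the block, and without any 1 of the 8 libraries.

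**Figure D2:**
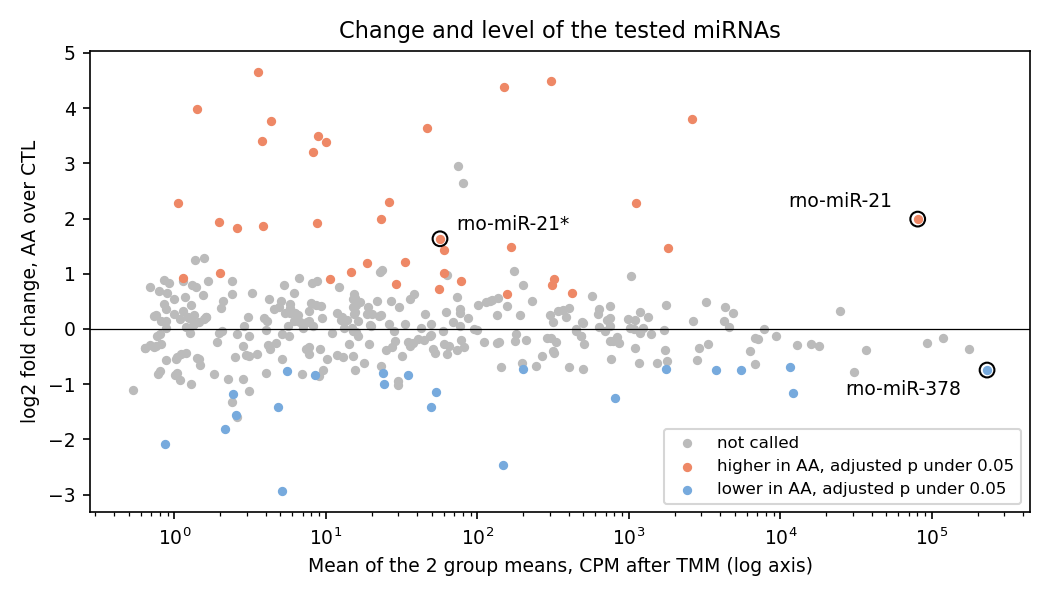
Log2 fold change of AA over control against the level in CPM, on a log axis, for the 367 miRNAs tested, with called miRNAs in colour. Of the 5 miRNAs with the largest mean share over all libraries, only rno-miR-21 is called higher, and rno-miR-378 is called lower.

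The members varied more between AA rats than between control rats. The highest share of rno-miR-21 was 1.35 times the lowest among controls and 2.59 times the lowest among AA rats. For rno-miR-21* these ratios were 1.35 and 2.22. On the log2 CPM scale, the SD of rno-miR-21 was 0.20 among controls and 0.63 among AA rats, beside medians of 0.30 and 0.37 over all miRNAs tested. That of rno-miR-21* was 0.092 and 0.54, and only 2.45% of the miRNAs tested had a smaller SD in the control group. The spread of the groups was given as a description and was not tested.

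The arm ratio is read within a library and needs no scaling between libraries. In the control libraries there were 1474, 1115, 1048 and 1081 reads of rno-miR-21 for each read of rno-miR-21*, in the order CTL1 to CTL4. In the AA libraries there were 1300, 1096, 1351 and 2505, in the order AA1 to AA4. The groups overlapped, CTL1 lay apart from the other controls in the direction of more rno-miR-21, and AA4 lay farther in that direction. As a part of both arms, rno-miR-21* was 0.0399% in AA4 (exact Clopper-Pearson 95% interval 0.0377% to 0.0422%), and its lowest value in any other library was 0.0678% in CTL1 (0.0609% to 0.0753%).

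The mean log2 arm ratio, rno-miR-21* over rno-miR-21, was -10.19 ± 0.23 for the controls and -10.53 ± 0.52 for the AA rats (SD over 4 libraries each). The difference of -0.34 was within the spread between rats (exact permutation test, two-sided, p = 0.314). The limma fit over all arm pairs gave -0.34 with a 95% interval from -0.97 to 0.28 (adjusted p = 0.57 from limma), an interval that holds 0 and reaches a log2 ratio lower by nearly 1. Without AA4 the difference was -0.091 (exact permutation test, p = 0.629). Both arms were therefore higher in the AA rats, and a change in their ratio was not detectable with 4 rats a group.

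The hairpin of miR-21 was among the most one-sided of those with enough reads on both arms. Hairpins with too few reads of the star were not ranked. Of the 92 pairs of rows named as an arm and its star with enough reads on both, miR-21 had the ninth lowest mean ratio, and the median log2 ratio over pairs was -5.65 in the control group. Of these pairs, 3 were called for a change in arm ratio, or 3.26%, and miR-21 was not among them. In 42 pairs the ratio differed by more in size. In AA4 its log2 ratio was 1.01 below the mean of AA1 to AA3, and 5.43% of the pairs had a lower value of that difference. Over all pairs the median of that difference was 0.12, and 26 of the 92 pairs had their lowest AA ratio in AA4.

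**Figure D3:**
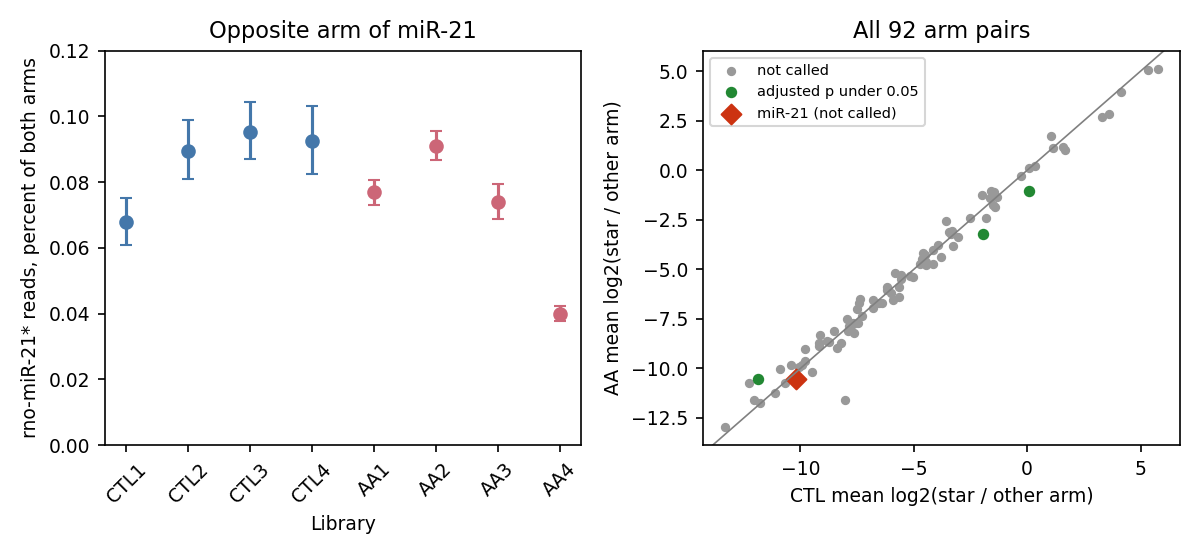
Left, rno-miR-21* reads as a percent of the reads of both arms in each library, with exact 95% intervals, control in blue and AA in red. Right, mean log2 ratio of star to other arm in AA against control for 92 hairpins, with the line of equal ratios; miR-21 (red diamond) lies low, at -10.19 and -10.53.

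The gain of rno-miR-21 in mean share was the largest of the 620 rows, and the largest loss was that of rno-miR-378. Of all percentage points gained by the 391 rows whose mean share was larger in the AA group, rno-miR-21 held 72.7%. The next gains were 0.875 points for rno-let-7f and 0.487 points for rno-miR-34c, a miRNA of the p53-induced miR-34 family. rno-miR-378, which lies in an intron of a regulator of energy metabolism and was the most abundant miRNA in the control kidney, fell by 8.27 points in mean share (log2 fold change -0.75 on the TMM scale, adjusted p = 0.019 from edgeR). There were 0.124, 0.106, 0.140 and 0.0867 reads of rno-miR-21 for each read of rno-miR-378 in CTL1 to CTL4, and 0.939, 0.690, 0.350 and 1.07 in AA1 to AA4. These ratios did not overlap between the groups. The shares of both miRNAs added up to 29.8% ± 2.22 for the controls and 32.2% ± 3.8 for the AA rats (SD over 4 libraries each). The exact permutation test of these sums gave p = 0.371 (two-sided). The pair holds the largest gain and the largest loss of these same shares, so no conclusion is drawn from that test. The 5 miRNAs with the largest mean share over all 8 libraries were rno-miR-378, rno-miR-143, rno-miR-30a, rno-miR-10a-5p and rno-miR-21. They took 69.3% ± 1.87 of control reads and 69.7% ± 0.665 of AA reads (SD over 4 libraries each). The exact permutation test gave p = 0.771 (two-sided). In the controls alone, rno-miR-30e at 3.83% and rno-miR-192 at 3.51% had larger mean shares than rno-miR-21 at 3.01%. The AA libraries thus brought rno-miR-21 into the 5. The test therefore does not decide whether the share of the top 5 was unchanged.

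**Figure D4:**
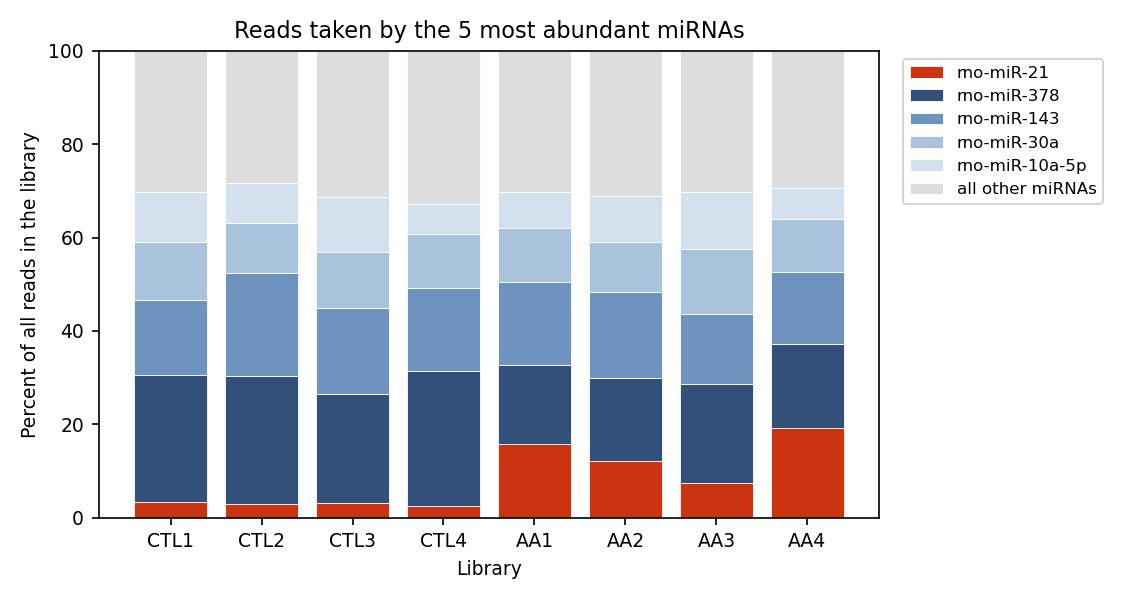
Percent of the reads of each library taken by the 5 miRNAs with the largest mean share over all libraries and by all others (grey). The red block of rno-miR-21 grows from 2.51% to 3.39% in the control libraries to 7.43% to 19.2% in the AA libraries, and the mean of the dark block of rno-miR-378 fell by 8.27 points.

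A share is a part of a whole, so each read of miR-21 lowers the share of every other row. All rows other than the 2 arms made up 97.0% ± 0.392 of control reads and 86.3% ± 5.06 of AA reads (SD over 4 libraries each). Leaving the arms out of the total raises every other share by 0.050, 0.043, 0.048 and 0.037 on the log2 scale in CTL1 to CTL4 and by 0.25, 0.19, 0.11 and 0.31 in AA1 to AA4. The mean difference of 0.17 is the amount by which the growth of miR-21 lowers all other miRNAs in a comparison of shares. Leaving out rno-miR-378 acts in the other direction and by a like amount, a mean difference of -0.15.

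These shifts were carried through the test on the 365 miRNAs other than the members. With total counts as library sizes, their median log2 fold change was 0.27, and 52 were called higher and 14 lower (18.5% of all 367 called). With the miR-21 arms left out of the totals, the median was 0.44, and 97 were called higher and 11 lower (30.0% of all 367 called). The 45 calls gained were all in miRNAs higher in the AA group, and none of them was called after TMM normalization. rno-miR-140*, rno-miR-152 and rno-miR-148b-3p, which were named after their values were seen, were lower with total counts and lost the call when miR-21 was left out of the totals (adjusted p from 0.062 to 0.11 from edgeR). After TMM normalization these 3 were called lower with and without the arms, with log2 fold changes of -0.68, -0.75 and -0.74 with the arms. With total counts less rno-miR-378 the median was 0.12, with 38 called higher and 18 lower, and with both miRNAs left out it was 0.32, with 61 and 14.

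TMM normalization was little affected by miR-21. When the factors were computed without its arms, the median over the other 365 miRNAs moved from 0.051 to 0.060, and the calls went from 36 higher and 22 lower to 36 higher and 20 lower (15.8% of all 367 called). All 56 were shared with the 58. The 2 calls lost, rno-miR-194 and rno-miR-410, which were named after their values were seen, had both been just inside the threshold (adjusted p = 0.0499 from edgeR). Sizes were then compared relative to their geometric mean over all libraries, with and without the arms. On that relative scale, the TMM size of a library moved by at most 2.33%, in AA3. The size by total counts moved by up to 11.7%, in AA4. The log2 fold change of rno-miR-21 itself ran from 1.85 with upper-quartile scaling to 2.38 with total counts less its own arms, and that of rno-miR-21* from 1.49 to 2.0 under the same settings.

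**Figure D5:**
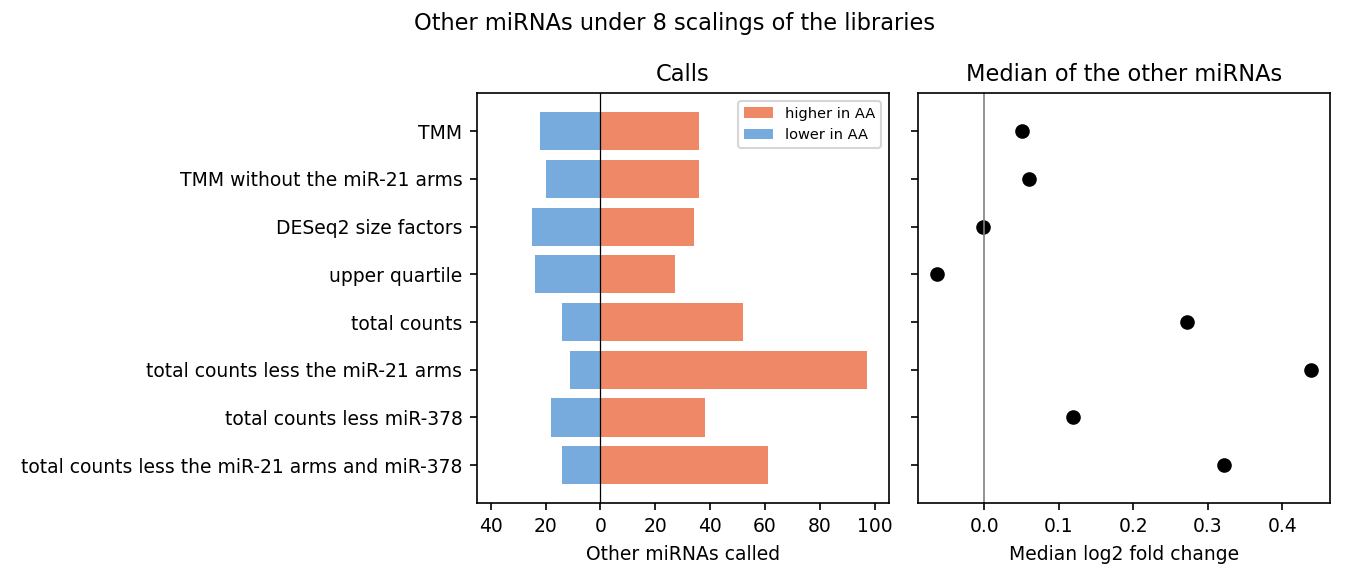
The 365 tested miRNAs other than the miR-21 arms under 8 scalings, with the numbers called higher (right of 0) and lower (left of 0) in AA, and their median log2 fold change. Leaving the miR-21 arms out moves the result with total counts, from 66 to 108 calls, and hardly moves that with TMM.

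Other miRNAs described in injured and scarring kidney were read from the same fit. The lists were chosen with earlier results of these data known, so the counts describe them and are not a test. Of 9 listed as rising, 8 were tested, and 5 were called higher and 0 lower. Of all 367 tested, 10.4% were called higher and 5.99% lower. The median log2 fold change of the 8 was 1.33, beside 0.061 over all 367 tested. rno-miR-132 and rno-miR-212, which come from 1 locus, rose by 2.0 and 1.86 on the log2 scale (adjusted p = 0.00070 and 0.0014 from edgeR), and rno-miR-146b, a brake on NF-κB signalling, rose by 2.27 (adjusted p = 0.0014). rno-miR-34a was also called, at 4.48, and rno-miR-199a-3p at 0.65. rno-miR-146a, rno-miR-199a-5p and rno-miR-214 were not called (log2 fold changes of -0.093, 0.80 and 0.50). With upper-quartile scaling, which called 7.90% of all miRNAs higher, 4 of the 8 were called and rno-miR-199a-3p was not. Of the 11 listed as falling (miR-29, miR-30 and miR-200), 0 were called by edgeR, where 5.99% of all 367 were called lower. With 11 miRNAs, a count of 0 is near that share. Their median log2 fold change was -0.13, with single values from -0.38 to 0.42. The lowest adjusted p of these 11 was 0.18, for rno-miR-30e.

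The profile of rno-miR-21 over the 8 libraries was set against those of the other miRNAs tested, as log2 CPM less the control mean. The closest were rno-miR-146b, rno-miR-130b, rno-miR-301b, rno-miR-132 and rno-miR-212, with root mean square differences of 0.22, 0.29, 0.32, 0.35 and 0.38, beside a median of 1.43 over all miRNAs. rno-miR-130b and rno-miR-301b are known to come from 1 locus. Its own star differed by 0.43, and 6 miRNAs were closer to rno-miR-21 than that. For rno-miR-21* the closest were rno-miR-301b, rno-miR-466b-2*, rno-miR-708, rno-miR-212 and rno-miR-18a, with differences of 0.37, 0.37, 0.39, 0.39 and 0.44, its own other arm left out. At 0.43, rno-miR-21 was closer to it than rno-miR-18a was. All 8 of these named miRNAs were called higher in the AA group, which is what the measure selects for, while rno-miR-301b had as few as 8 reads in a library and is measured with little precision.

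Marker miRNAs of several cell types, also chosen with earlier results known, were read beside the members. Of these, 2 of 4 leukocyte and 1 of 3 stromal miRNAs were called higher, where 10.4% of all 367 miRNAs were. In sets this small, the number called says little. The 4 leukocyte miRNAs (rno-miR-142-3p, rno-miR-142-5p, rno-miR-150 and rno-miR-223) summed to 914 to 1264 CPM in the control libraries and 2057 to 4121 CPM in the AA libraries. The 2 called were rno-miR-142-3p and rno-miR-223, and none of the 4 was at 0 in any library. Most of the sum was rno-miR-142-3p, with a mean of 954 CPM for the controls and 2649 CPM for the AA rats. The row rno-miR-142-5p was not called (log2 fold change 0.30, adjusted p = 0.56 from edgeR). AA4 had the highest sum and AA3 the lowest of the AA libraries, as for rno-miR-21, whereas AA1 and AA2 stood in the reverse order. The 3 stromal miRNAs, all of them also in the rising list above (rno-miR-199a-5p, rno-miR-199a-3p and rno-miR-214) summed to 468 to 526 and 536 to 994 CPM, with rno-miR-199a-3p called higher. The 5 nephron miRNAs (rno-miR-192, rno-miR-194, rno-miR-204, rno-miR-30a and rno-miR-30d) had a median log2 fold change of -0.73. Of these, rno-miR-194 and rno-miR-204 were called lower, where 5.99% of all miRNAs were. With total counts in edgeR 0 of the 5 were called, where 3.81% of all miRNAs were called lower. The 2 red blood cell miRNAs, rno-miR-144 and rno-miR-451, the 2 endothelial rows of miR-126, the 2 smooth muscle miRNAs, rno-miR-143 and rno-miR-145, and the 5 epithelial miRNAs of the miR-200 family were not called. Their part in the rise of miR-21 was not tested. The liver row rno-miR-122 was highest in AA2, and without that library the log2 fold change of rno-miR-21 was 1.95.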

How the data were processed

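The 8 small RNA libraries (4 AA, 4 control) were read on an Illumina Genome Analyzer II after size selection on a gel. The authors deposited raw read counts per known rat miRNA. For the study's miRNA search, reads with ambiguous bases and short reads were removed, long ones trimmed, and the rest mapped with Bowtie to miRBase. The role of DESeq, which the labels also name, is not given in the sources used here, nor is how reads on more than 1 miRNA were counted. Size selection, ligation and PCR favour some sequences, so levels of different miRNAs are less comparable than 1 miRNA between libraries. Each column carries the title of 1 sample, from which group and number were taken.

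Deposited counts summed to 13412373 to 15616670 per library. The read totals in the study's text, given for all samples together, are far smaller than the sum of these, and which reads either counts is not given in the sources used here. A filter of 10 or more reads in 4 or more libraries left 367 miRNAs, which entered edgeR 4.0.16 under R 4.3.3 (TMM, glmQLFit, glmQLFTest, two-sided, Benjamini-Hochberg, threshold 0.05). The standard error is the size of the log2 fold change over the square root of F. Log2 CPM used a prior count of 2. Arm ratios over 92 pairs were fitted with limma 3.58.1 on log2 ratios with a pseudocount of 0.5. Shares and the miR-21 arm ratio were compared with exact permutation tests in SciPy 1.17.1. The hairpin was folded with RNAfold 2.7.2. Scripts were tested on simulated counts. Within groups, chi-square per degree of freedom was 394 or more for every pair of libraries, so each counted as 1 replicate.

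Members and lists were chosen with earlier results of these data known. miRNAs named are the members, those sharing a seed (none found in RefSeq), the 5 nearest each member and the 5 most abundant. The called arm pairs are also named, as are the listed miRNAs, of which rno-miR-155 was not analysed here. Alternatives were other scalings, DESeq2 1.42.0, other filters and pseudocounts, a block for the library number, and leaving out each library.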

Additional observations from a re-analysis of the deposited data

How the results depend on the processing

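The log2 fold changes of rno-miR-21 and rno-miR-21* kept their direction and stayed called in all 11 other settings (1.85 to 2.38 and 1.49 to 2.0) and without each library in turn (1.71 to 2.19 and 1.27 to 1.81). The calls among the other miRNAs went from 58 to 108 with total counts less the miR-21 arms, and lay between 50 and 76 in the other 10 settings. Without 1 library they were 34 to 52, lowest without CTL2 (34) and CTL1 (36). Their median log2 fold change was 0.051 and moved with the scaling, to -0.0018 with DESeq2 size factors, -0.064 with the upper quartile, 0.27 with total counts, 0.44 with total counts less the miR-21 arms, 0.12 less rno-miR-378 and 0.32 less both. It was -0.0019 in the DESeq2 Wald test, which gave 12 miRNAs no adjusted p, and 0.092 with no filter on reads. Without 1 library it was -0.10 to 0.091. The share differences were 8.85 to 12.8 points for rno-miR-21 and 0.0055 to 0.0078 points for rno-miR-21* without 1 library, where 3 against 4 libraries cannot go below p = 0.0571 in the exact permutation test, so that the threshold cannot be reached. The arm ratio of miR-21 passed no threshold in any setting, though its exact permutation tests without 1 library could not have passed either. Its difference was -0.49 to -0.091 without 1 library. The arm pairs called went from 3 to between 0 and 5 without 1 library. They were 0 by limma without CTL2 or CTL3, where 13 and 16 pairs had an unadjusted p under 0.05, and 5 without AA1.

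The libraries carry the numbers 1 to 4 in both groups, but the deviations of libraries with 1 number, each from its own group mean, correlated by 0.049, 0.20, 0.14 and 0.35 over 367 miRNAs, so the numbers were not taken as pairs. With the number as a block, rno-miR-21 was at 1.90 and rno-miR-21* at 1.56, both called, 76 other miRNAs were called, and 3 arm pairs were called, 2 of them the same as without it (miR-322 was lost and miR-191 gained). With the block the arm ratio of miR-21 was at -0.34 (exact sign-flip permutation test, p = 0.5). With the numbers 1 to 4 as pairs, that test has too few sign flips to reach 0.05. Depth limits the star arm, whose 319 to 481 reads in the control libraries leave more counting error than the reads of rno-miR-21.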

Other observations

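3 hairpins other than miR-21 were called for a change in arm ratio between the groups (limma on log2 ratios, adjusted p under 0.05). For miR-152 the log2 ratio of star to other arm was -11.86 in the control group and higher by 1.33 in the AA group (adjusted p = 0.020 from limma), with its star at only 1.22 CPM in the controls. For miR-322, which is transcribed with miR-503, and miR-382, of the imprinted cluster between Dlk1 and Dio3, the ratio fell by 1.25 and 1.12 (adjusted p = 0.020 and 0.025 from limma). Each of these rests on 4 libraries a group. None of the 3 was called without CTL2 or without CTL3, miR-382 was not called without CTL1 (adjusted p = 0.083 from limma), and miR-322 was not called with the library number as a block (adjusted p = 0.061 from limma).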
